A study of Mus musculus with 19 samples.

Results

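The temporal identity factors of the retina are 10 genes that were chosen by name, with earlier results of these data known. Of these, 5 are tied to the early phase of retinal development (Lin28a, Lin28b, Hmga1, Hmga2 and Ikzf1). The other 5 are tied to the late phase (Casz1, Nfia, Nfib, Nfic and Nfix). All 10 were found by Ensembl identifier among the 47069 genes of each count table, and all 10 passed the filter on low counts, Ikzf1 through the iRGC libraries alone. Their transcripts were measured by poly(A) RNA-seq in ipsilateral and contralateral retinal ganglion cells (iRGCs and cRGCs), whose axons avoid or cross the midline at the optic chiasm. The iRGC libraries (n = 3) came from GFP-positive cells sorted from retinas of Slc6a4-Cre; Sun1-GFP embryos, and the cRGC libraries (n = 3) from GFP-positive cells of Pou4f2-Cre; Sun1-GFP retinas from which the ventrotemporal region had been dissected away. All embryos were of the C57/DBA F1 strain, of mixed sexes, at E16.5, were labelled wild type and carried the Sun1-GFP reporter, a nuclear envelope protein with a fluorescent tag, in the Rosa26 locus. The Slc6a4-Cre line is the transgenic ET33 Sert-Cre line, in which Cre follows the serotonin transporter gene, and in the other line Cre follows Pou4f2. In both, Cre removes a stop cassette, so that GFP marks the cells that made Cre and also their descendants. Population thus went together with the Cre line and with the removal of the ventrotemporal region in every library. The study also describes iRGCs at this age as younger on average than cRGCs, since they are born later. Differences of laterality, Cre line, retinal region and cell age cannot be told apart in these libraries. Each library gave between 28193178 and 33638083 reads counted on genes.

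Retinal progenitors make the retinal cell types in a fixed order, with ganglion cells among the earliest and Müller glia and bipolar cells among the last, and the competence of the progenitors changes as they do so. Lin28a and Lin28b are RNA-binding proteins that block the maturation of the let-7 microRNAs, and let-7 in turn represses Lin28 and Hmga2 transcripts. Ikzf1 (Ikaros) gives early competence, Casz1 favours later fates, and the nuclear factor I proteins Nfia, Nfib and Nfix act in late progenitors in exit from the cell cycle and in the making of late cell types.

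The let-7 family is shown by its mature sequences, because the early set is tied to it. The sequences are from RefSeq on GRCm38.p6, written 5′ to 3′, with the seed (bases 2 to 8) in capitals. All 9 different mature members share this seed, and 3 of them are shown whose hairpins lie in transcripts that were counted.
mmu-let-7a-5p: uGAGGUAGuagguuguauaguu
mmu-let-7d-5p: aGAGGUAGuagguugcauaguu
mmu-miR-98-5p: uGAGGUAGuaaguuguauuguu

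The 7 bases that pair with the seed, CTACCTC, were searched on the transcript strand in the longest 3′ UTR that the GENCODE M21 annotation of GRCm38 gives for each gene. Of the 5 early genes, 4 had at least 1 match, with 2 in Lin28a, 4 in Lin28b, 1 in Hmga1, 4 in Hmga2 and none in Ikzf1. Of the 5 late genes, Nfia had 1 match and the others had none. This came to 0.745 matches per kb of 3′ UTR in the early set and 0.0394 in the late set, beside 0.0722 over the 13646 tested genes with an annotated 3′ UTR, of which 10.8% held a match. In Lin28a both matches, and in Lin28b and Hmga2 the match nearest to the stop codon, were followed by an A, which makes the 8-base match that 3.82% of all these genes held. A match is a description of the sequence and does not show that let-7 acts there. The match nearest to the stop codon is printed for each member that has one, as 22 bases of the transcript strand with the 7-base match in capitals.
Lin28a, chr4:134005189-134005210, minus strand: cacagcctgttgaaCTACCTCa
Lin28b, chr10:45381022-45381043, minus strand: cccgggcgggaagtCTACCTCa
Hmga1, chr17:27563278-27563299, plus strand: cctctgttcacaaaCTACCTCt
Hmga2, chr10:120364224-120364245, minus strand: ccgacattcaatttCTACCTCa
Nfia, chr4:98117919-98117940, plus strand: atacaggagaagtgCTACCTCt

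**Figure D1:**
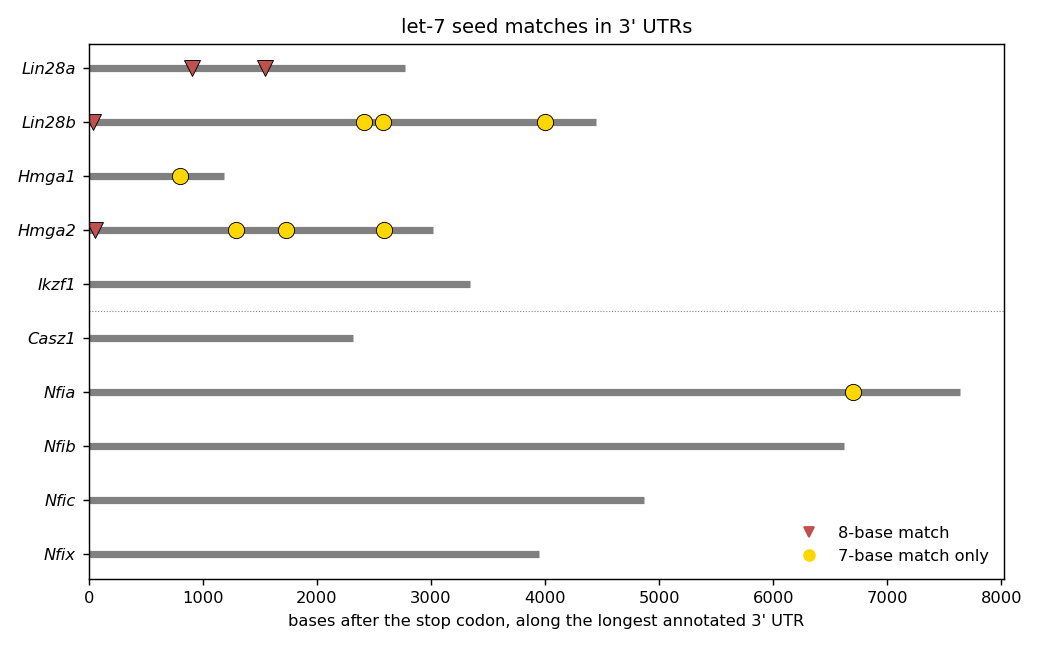
Positions of let-7 seed matches in the 10 genes, in bases after the stop codon along the longest annotated 3′ UTR (grey bars), with triangles for 8-base and circles for 7-base matches. The early set, above the dotted line, holds 11 matches and the late set holds 1.

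The labels were checked first. Zic2, the ventrotemporal transcription factor of iRGCs, was at 133, 173 and 157 CPM (counts scaled to library size after TMM normalization) in iRGC replicates 1 to 3 and at 57.0, 60.2 and 65.7 CPM in the cRGC replicates, so that the populations did not overlap. Slc6a4, the gene that Cre follows in the iRGC line, was at 2.06, 33.4 and 116 CPM in the iRGC replicates and at 48.1, 35.4 and 30.5 CPM in the cRGC replicates. It thus overlapped between the populations and was lowest in iRGC replicate 1 (adjusted p = 0.768, edgeR), and each member is therefore also given without that library. Pou4f2, an RGC transcription factor that Cre follows in the cRGC line, was higher in cRGCs, at 227 ± 57.4 CPM against 102 ± 29.6 CPM in iRGCs (mean ± SD, n = 3).

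The cell type markers also differed between the populations. The 14 RGC markers summed to 2434, 3374 and 5271 CPM in the iRGC libraries and to 13590, 12242 and 14921 CPM in the cRGC libraries, and 13 of them were lower in iRGCs. Nefm, a neurofilament subunit, was the most abundant of them in iRGCs. The 15 retinal progenitor markers, with the growth factor gene Fgf15 the most abundant, summed to 6906, 6245 and 5338 CPM in iRGCs and to 642, 1551 and 1028 CPM in cRGCs, and all 15 were higher in iRGCs. By the test described with the 10 factors, 46.4% of all tested genes differed, in one direction or the other. None of the RGC and progenitor markers was at 0 in a whole population. The 11 endothelial markers summed to 478, 730 and 437 CPM in the iRGC libraries and to 89.2, 109 and 72.0 CPM in the cRGC libraries. Most of these sums, apart from that of iRGC replicate 2, were reads of Kdr, a growth factor receptor gene, at 366, 320 and 418 CPM in iRGCs. The other 10 endothelial markers, summed apart after these values were seen, came to 112, 410 and 18.7 CPM in iRGCs and to at most 5.87 CPM in a cRGC library, and so were highest in iRGC replicate 2. The 10 erythroid markers summed to 95.5 CPM in that library and to at most 16.4 CPM in the others. In bulk samples such as these, fewer cells of a type and less RNA per cell cannot be told apart.

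**Figure D2:**
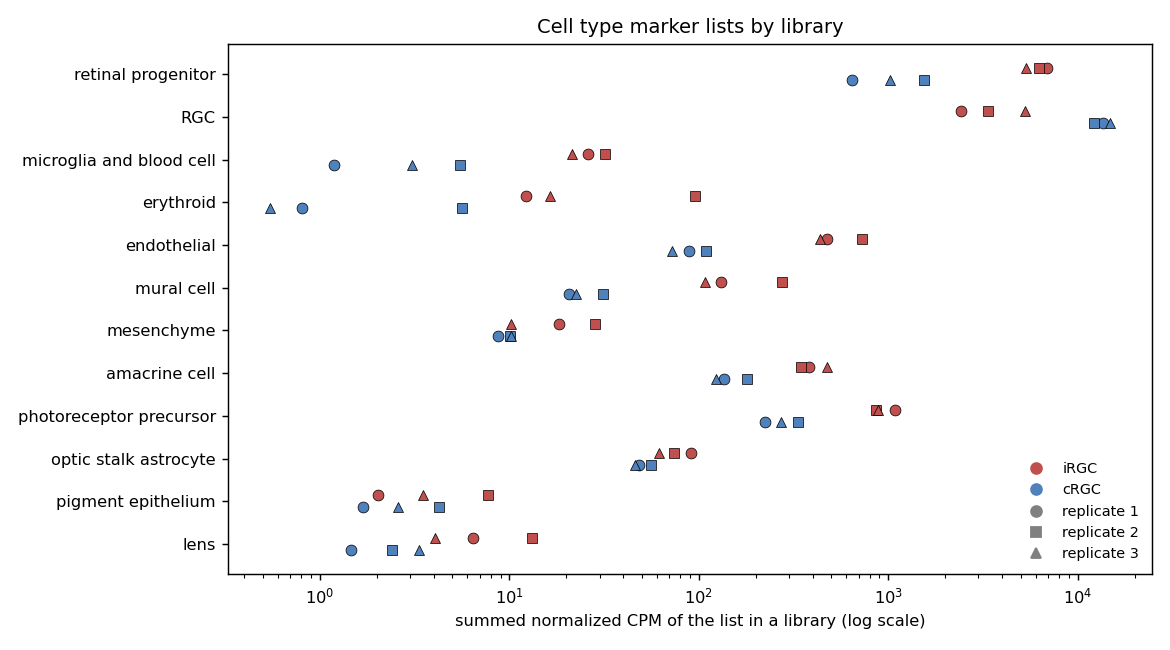
Summed normalized CPM (log scale) of each cell type marker list in each library, with red for iRGCs, blue for cRGCs and a symbol for each replicate. The RGC list was higher in the 3 cRGC libraries. The mesenchyme and pigment epithelium lists overlapped between the populations. Every other list, those of non-retinal cells included, was higher in the 3 iRGC libraries.

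A gene counted as higher or lower at an adjusted p-value under 0.1, with edgeR's quasi-likelihood test and Benjamini-Hochberg adjustment over the 15941 tested genes, and the log2 fold change of iRGCs over cRGCs is written log2FC. By this rule 7395 genes (46.4%) differed between the populations, 23.3% higher and 23.1% lower in iRGCs. Of the 10 temporal factors, 7 passed. The levels of 6 were higher in iRGCs (Hmga1, Hmga2, Ikzf1, Casz1, Nfia and Nfib), that of Lin28b was lower, and Lin28a, Nfic and Nfix did not pass. Of the late set 3 genes were higher and none was lower, with a median log2FC of 1.45 over its 5 genes, beside -0.003 over all tested genes. Of the early set 3 were higher and 1 was lower, but Ikzf1 passed the filter on low counts through the iRGC libraries alone, so that its direction was fixed by the filter. The other 4 early genes held 2 that were higher, 1 that was lower and 1 that did not pass, with a median log2FC of 0.41. Of the 9 genes other than Ikzf1, 5 were higher in iRGCs, and in these every iRGC library lay above every cRGC library. Over all tested genes the populations did not overlap in 55.3%, with iRGCs the higher in 27.1%. The 5 genes also passed without iRGC replicate 1 and without iRGC replicate 2, the library with the most RNA of the endothelial markers.

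**Figure D3:**
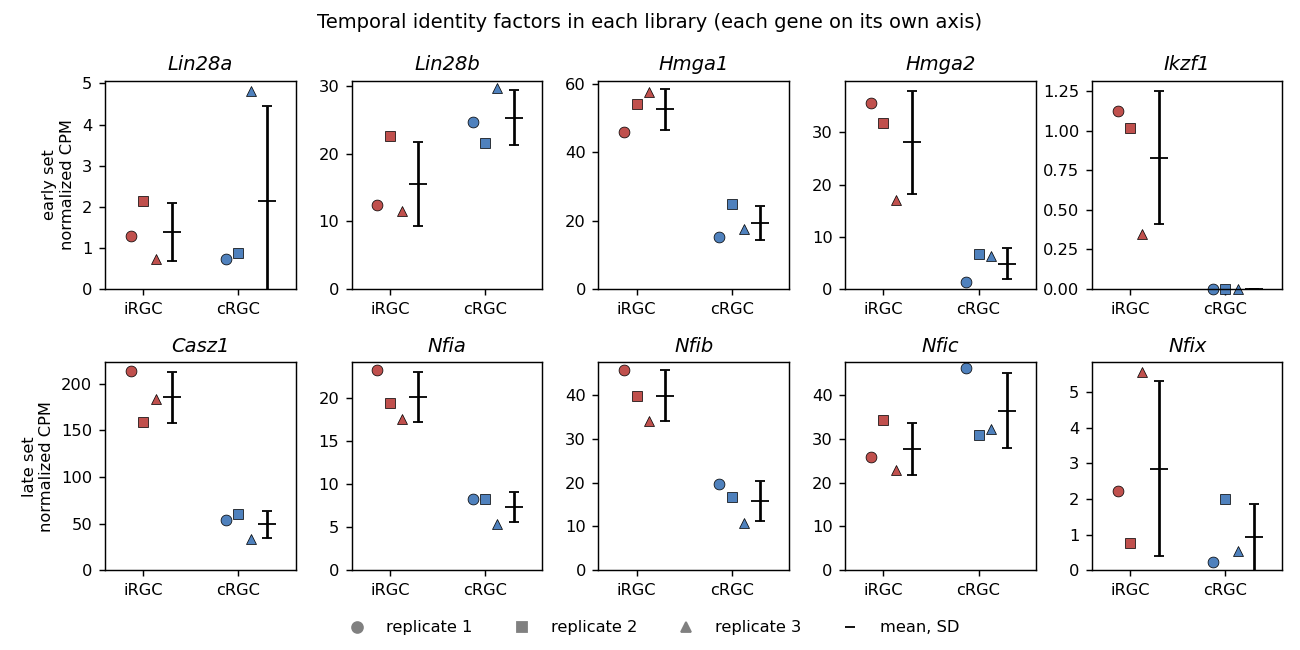
Normalized CPM of each gene in each library, with each gene on its own axis from 0, the early set above and the late set below. Bars are the mean and SD of 3 libraries and are not drawn below 0. Hmga1, Hmga2, Casz1, Nfia and Nfib do not overlap between the populations. Nor does Ikzf1, which passed the filter on low counts through the iRGC libraries alone.

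Among the early genes, the Lin28 pair was counted at low to moderate levels. Lin28b (chr10:45376620-45486395, minus strand) was at 12.4, 22.6 and 11.5 CPM in iRGC replicates 1, 2 and 3 and at 24.8, 21.6 and 29.7 CPM in the cRGC replicates. The populations overlapped, since iRGC replicate 2 lay above cRGC replicate 2. Its mean was 1.63-fold higher in cRGCs, with a log2FC of -0.71 (SE 0.28, adjusted p = 0.0752, edgeR). This call was lost without iRGC replicate 1 (log2FC -0.57, adjusted p = 0.182, edgeR), iRGC replicate 3 (adjusted p = 0.178), cRGC replicate 1 (adjusted p = 0.144) or cRGC replicate 3 (adjusted p = 0.239), whereas without iRGC replicate 2 the log2FC was -1.09 (adjusted p = 0.00813, edgeR).

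Lin28a (chr4:134003330-134018841, minus strand), the relative of Lin28b that is best known from embryonic stem cells, was near the limit of the counting. It was at 1.29, 2.13 and 0.725 CPM in the iRGC replicates and at 0.730, 0.863 and 4.81 CPM in the cRGC replicates. Of its counts in cRGCs, most came from replicate 3, with 149 counts against 19 and 25 in the other replicates. Its log2FC of -0.63 (SE 0.91, adjusted p = 0.632, edgeR) was of the opposite sign without cRGC replicate 3, at 0.80 (adjusted p = 0.629, edgeR), and was -0.58 without iRGC replicate 1. Gm13061, on the opposite strand, shares 5.86% of its exonic bases, and whether the counting used the strand is not given in the sources used here.

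The HMGA proteins bind AT-rich DNA and open chromatin, and both genes were higher in iRGCs. Hmga1 (chr17:27556497-27563674, plus strand) was at 46.0, 54.1 and 57.7 CPM in iRGCs and at 15.3, 24.8 and 17.6 CPM in cRGCs. The lowest iRGC library was thus above the highest cRGC library, and the log2FC was 1.45 (SE 0.20, adjusted p = 0.000662, edgeR), with 1.54 without iRGC replicate 1. Its counts are uncertain to the extent that reads of Hmga1b, a near-identical copy on another chromosome, could not be assigned. Hmga1b itself had at most 58 counts in a library. AI413582, on the opposite strand, shares 4.80% of the exonic bases of Hmga1.

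Hmga2 (chr10:120361275-120476469, minus strand), the let-7 target with the most matches of the 10 genes together with Lin28b, was at 35.7, 31.7 and 17.0 CPM in iRGCs and at 1.38, 6.66 and 6.36 CPM in cRGCs. The populations did not overlap, with iRGC replicate 3 the lowest of its population and cRGC replicate 1 the lowest of all. The log2FC of 2.54 (SE 0.53, adjusted p = 0.00494, edgeR) corresponds to means that were 5.86-fold higher in iRGCs, and it was 2.33 without iRGC replicate 1. Lin28b and Hmga2, both with 4 matches, thus differed in opposite directions between the populations.

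Ikzf1 (chr11:11685003-11772926, plus strand), a zinc finger protein known best from lymphocytes and used in the retina for early competence, had 35, 33 and 11 counts in iRGCs and 0 counts in each cRGC library. These are 1.13, 1.02 and 0.347 CPM. Counted against a floor of 3 counts per cRGC library, its observed mean was at least 7.90-fold higher in iRGCs. This bound leaves out the spread between the iRGC libraries. The adjusted p was 0.0169 (edgeR), and 0.0362 without iRGC replicate 1. As a gene that passed the filter through iRGCs alone, it could only be higher there, so these p-values do not test its direction. With at least 10 counts required in every library it was not tested. Microglia and blood cells also express Ikzf1. The libraries were sorted for GFP, and how fully the sort removed such cells was not tested. The 14 markers of that list summed to 26.0, 31.9 and 21.6 CPM in iRGCs and to 1.19, 5.49 and 3.07 CPM in cRGCs. Only 9 of them passed the filter on low counts, most of these through the iRGC libraries as Ikzf1 did, so that their direction was largely fixed and no count of calls is given. The most abundant was Csf1r, the receptor for a macrophage growth factor, at 7.65, 8.50 and 5.64 CPM in iRGCs and 0, 1.24 and 0.161 CPM in cRGCs. The pan-leukocyte gene Ptprc was at 2.77, 0.989 and 0.536 CPM in iRGCs and 0, 0 and 0.678 CPM in cRGCs, and Spi1, a defining myeloid factor, had 0, 14 and 7 counts in iRGCs and 0, 5 and 3 counts in cRGCs. Aif1, another microglial gene, was lower on average in iRGCs, at 0.199 CPM against 0.518 CPM, and did not pass (log2FC -1.36, SE 1.45). No marker of the list was at 0 in all libraries. The part of these cells in the Ikzf1 counts was not tested.

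**Figure D4:**
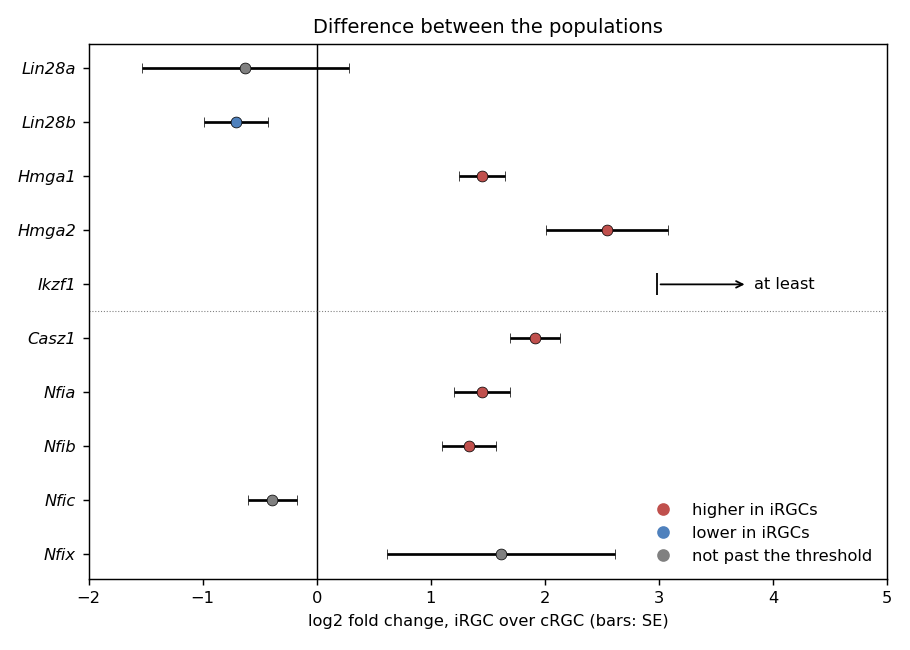
Log2FC of iRGCs over cRGCs for each gene with its SE as bars, early set above the dotted line. Ikzf1 is drawn as a lower bound on the fold of observed means, without their spread, because it had 0 counts in cRGCs. Grey points did not pass the threshold. Hmga2 and Casz1 have the largest fitted changes beside Ikzf1, and Lin28b is the member that was lower in iRGCs.

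Among the late genes, Casz1 (chr4:148804429-148954889, plus strand), a zinc finger transcription factor of mid to late progenitors and of rods, had the highest CPM of the 10. It was at 214, 159 and 184 CPM in iRGCs and at 54.2, 60.7 and 33.2 CPM in cRGCs. All iRGC libraries lay above all cRGC libraries, with a 3.76-fold higher mean and a log2FC of 1.91 (SE 0.22, adjusted p = 0.000314, edgeR), and of 1.80 without iRGC replicate 1.

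Nfia (chr4:97772734-98118874, plus strand) was at 23.3, 19.5 and 17.6 CPM in iRGCs and at 8.34, 8.35 and 5.42 CPM in cRGCs. Nfib (chr4:82290173-82705750, minus strand) was at 45.6, 39.7 and 34.1 CPM in iRGCs and at 19.8, 16.8 and 10.8 CPM in cRGCs. Neither overlapped between the populations, and in both genes iRGC replicate 1 was highest and cRGC replicate 3 lowest. The log2FC was 1.45 for Nfia (SE 0.25, adjusted p = 0.00177, edgeR) and 1.33 for Nfib (SE 0.24, adjusted p = 0.00215, edgeR). Without iRGC replicate 1 they were 1.33 and 1.22, and both calls held.

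The other NFI genes did not pass the threshold. Nfic (chr10:81396186-81455635, minus strand) was at 25.9, 34.2 and 23.0 CPM in iRGCs and at 46.1, 30.9 and 32.1 CPM in cRGCs, so the populations overlapped, and its log2FC was -0.39 (SE 0.21, adjusted p = 0.187, edgeR). Among the alternatives run it passed only when iRGC replicate 2 was left out (-0.57, adjusted p = 0.0881, edgeR), and without iRGC replicate 1 its log2FC was -0.35. Nfix (chr8:84699876-84800344, minus strand) was at 2.22, 0.773 and 5.55 CPM in iRGCs and at 0.231, 2.00 and 0.549 CPM in cRGCs. Its log2FC of 1.61 (SE 1.00, adjusted p = 0.242, edgeR) came with counts of 25 to 176 in iRGCs and 6 to 58 in cRGCs, and single libraries moved it. It was 0.68 without iRGC replicate 3 (adjusted p = 0.713, edgeR), 1.13 without cRGC replicate 1 and 1.77 without iRGC replicate 1, and it passed without cRGC replicate 2 alone (2.84, adjusted p = 0.0950, edgeR).

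Amacrine, photoreceptor and progenitor genes were higher in iRGCs beside Casz1, Nfia and Nfib. The 8 amacrine markers, of which the transcription factor gene Tfap2b was the most abundant and none was at 0, summed to 383, 348 and 477 CPM in iRGCs and to 135, 179 and 124 CPM in cRGCs, and 7 of them were higher in iRGCs, where 46.4% of all tested genes differed. The 8 photoreceptor precursor markers, led by Neurod1, summed to 1091, 860 and 884 CPM in iRGCs and to 225, 336 and 272 CPM in cRGCs. Of the 7 that were tested, 6 were higher and 1 lower, which was Rxrg (log2FC -1.08, SE 0.22). The marker that was not tested, Rcvrn, had 0 counts in each iRGC library and at most 4 in a cRGC library. Within the populations, some orders of the libraries were shared between lists and factors and others were not. In iRGCs the progenitor sum fell in the order of replicates 1, 2 and 3, as did Nfia, Nfib, Hmga2 and Ikzf1. The photoreceptor sum fell in the order of replicates 1, 3 and 2, as did Casz1. The amacrine sum was highest in replicate 3, as were Hmga1 and Nfix. In cRGCs the amacrine sum was highest in replicate 2 and lowest in replicate 3, as were Casz1 and Nfia. Nfia was nearly level in cRGC replicates 1 and 2, at 8.34 and 8.35 CPM. The progenitor and photoreceptor sums fell in the order of replicates 2, 3 and 1, as did Hmga1, Hmga2 and Nfix. Nfib fell in the order of replicates 1, 2 and 3. The part of these cell types in the levels of the temporal factors was not tested.

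Ratios within a family compare members inside the same library. They are given as plain quotients of CPM, and the log2 differences and tests used CPM + 0.5. With 3 libraries in each population, the smallest p that the exact two-sided permutation test allows is 0.1, and over the 8 ratios the lowest adjusted p was 0.4 (Benjamini-Hochberg). The ratio of Nfia to Nfib in CPM was 0.511, 0.491 and 0.515 in the iRGC libraries and 0.422, 0.497 and 0.503 in the cRGC libraries. It thus differed little between libraries, with a log2 difference of 0.07 between the populations (exact permutation test, p = 0.7), although both genes themselves differed between them. Nfib over Nfic was 1.76, 1.16 and 1.48 in iRGCs and 0.428, 0.545 and 0.336 in cRGCs, so that Nfib had more reads than Nfic in each iRGC library and fewer in each cRGC library. The log2 difference was 1.72 (exact permutation test, p = 0.1, the smallest possible). Nfia over Nfic gave a log2 difference of 1.79 and no overlap either (exact permutation test, p = 0.1). The ratio of Hmga1 to Hmga2 overlapped, with 1.29, 1.70 and 3.40 in iRGCs and 11.0, 3.73 and 2.77 in cRGCs, and so did that of Lin28b to Lin28a, with 9.62, 10.6 and 15.9 in iRGCs and 33.9, 25.0 and 6.18 in cRGCs. The 3 ratios with Nfix overlapped too.

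**Figure D5:**
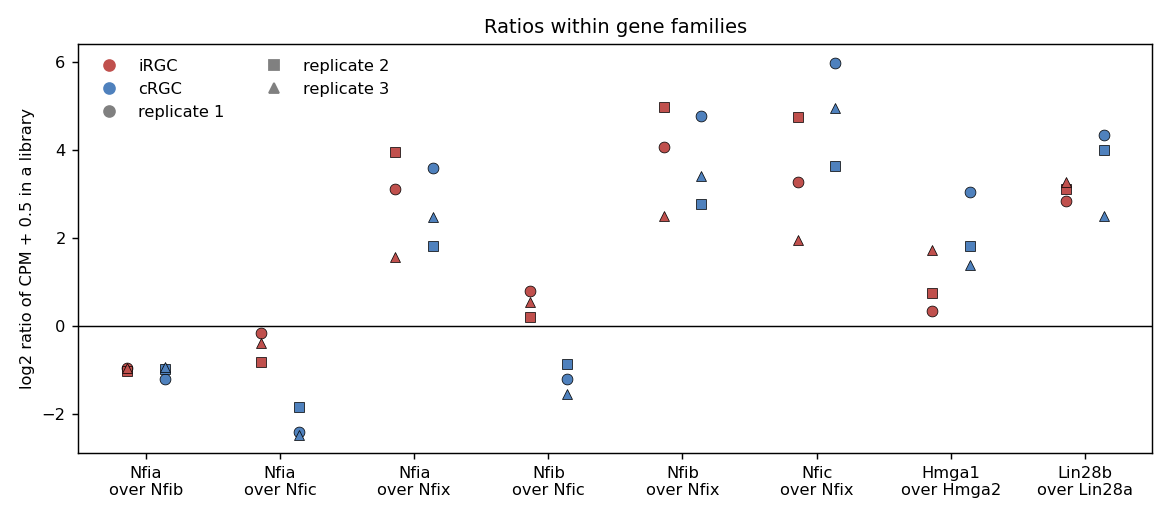
Log2 ratio of CPM + 0.5 between family members in each library, with red for iRGCs, blue for cRGCs and a symbol for each replicate. Nfia over Nfic and Nfib over Nfic do not overlap between the populations, and Nfia over Nfib stays near -1 in all 6 libraries.

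To compare levels between genes, CPM was divided by the length of the merged exons in kb. In iRGCs, Hmga1 was highest at 24.8 ± 2.83 CPM per kb (mean ± SD, n = 3), then Casz1 at 15.2 ± 2.25, Nfic at 4.18 ± 0.884, Hmga2 at 4.15 ± 1.46, Nfib at 2.66 ± 0.384, Nfia at 1.85 ± 0.267 and Lin28b at 1.71 ± 0.682. Nfix (0.387), Lin28a (0.346) and Ikzf1 (0.144 CPM per kb) stayed under 1 CPM per kb. The ranges of neighbours in this order overlapped for Nfic and Hmga2, Hmga2 and Nfib, Nfia and Lin28b, Nfix and Lin28a, and Lin28a and Ikzf1. In cRGCs the order was Hmga1 (9.05 ± 2.34 CPM per kb), Nfic (5.49 ± 1.28), Casz1 (4.04 ± 1.18), Lin28b (2.80 ± 0.453) and Nfib (1.06 ± 0.306), and Hmga2, Nfia, Lin28a, Nfix and Ikzf1 were under 1 CPM per kb. There, Hmga1 lay above Nfic and Lin28b above Nfib without overlap, Ikzf1 at 0 lay below Nfix, and all other neighbours overlapped. Hmga1 was thus the most abundant member per length in both populations, Casz1 ranked above Nfic in iRGCs without overlap and below it in cRGCs with overlapping ranges, and Lin28b ranked 7 in iRGCs and 4 in cRGCs. With the length of the longest transcript instead, Casz1 ranked above Nfic in both populations, and Hmga2 in cRGCs was at 1.26 CPM per kb. Hmga1 still had the highest mean by that length, but its range overlapped that of Casz1 in both populations. The ranges were 23.0 to 28.9 against 20.1 to 27.0 CPM per kb in iRGCs, and 7.63 to 12.4 against 4.19 to 7.66 in cRGCs. With library totals in place of TMM, Nfib in cRGCs was at 0.983 CPM per kb, so that 4 to 6 of the members were above 1 CPM per kb in cRGCs by setting.

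The other genes of the let-7 pathway were taken from lists chosen by function. These lists and those that follow were chosen with earlier results of these data known. Their shares called are therefore descriptions and not tests. Of 16 genes known as let-7 targets, 8 were higher and 3 lower in iRGCs, with a median log2FC of 0.60, a share of 68.8% called beside 46.4% over all tested genes, whose median was -0.003. Ccnd1, the G1 cyclin of retinal progenitors, was at 3362, 2650 and 2520 CPM in iRGCs and at 277, 779 and 471 CPM in cRGCs, without overlap (log2FC 2.48, SE 0.33). Ccnd2, another G1 cyclin, was at 37.6, 97.6 and 9.81 CPM in iRGCs and at 0.231, 2.55 and 5.68 CPM in cRGCs, a wide spread in both. Its log2FC of 4.08 (SE 1.00) ranged from 3.05 to 5.10 with single libraries left out, and limma voom did not call it (adjusted p = 0.137). Prtg, a cell adhesion protein of early neural tissue, had a log2FC of 1.71 (SE 0.28), Plagl2, a zinc finger protein, of 1.36 (SE 0.15), and Trim71, a conserved repressor of mRNAs, of 1.07 (SE 0.27). The genes higher in iRGCs included both cyclins, which also mark dividing cells, as the progenitor list does. The part of dividing cells in the levels of the let-7 targets was not tested.

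The Igf2bp genes encode RNA-binding proteins of fetal tissue, and the 3 of them differed in outcome. Igf2bp1 was at 278, 238 and 140 CPM in iRGCs and at 84.2, 87.3 and 126 CPM in cRGCs (log2FC 1.14, SE 0.25, adjusted p = 0.0067, edgeR), and Igf2bp2 had 0.91 (SE 0.14, adjusted p = 0.000916, edgeR). Igf2bp3 was at 160, 152 and 111 CPM in iRGCs and at 133, 117 and 163 CPM in cRGCs, with a log2FC of 0.03 (SE 0.17, adjusted p = 0.9, edgeR). The genes that were lower in iRGCs were the proto-oncogene Myc (-0.97, SE 0.35), the chromatin protein Arid3b (-0.73, SE 0.24) and Dicer1, which cuts microRNA precursors (-0.26, SE 0.11, adjusted p = 0.0957, edgeR). Each of these calls was lost without some libraries, for Myc without iRGC replicate 1 or 2 or cRGC replicate 1 or 2, for Arid3b without iRGC replicate 1 or cRGC replicate 3, and for Dicer1 without replicate 1 or 3 of either population, with adjusted p-values (edgeR and its alternatives) of up to 0.179, 0.143 and 0.293. That of Dicer1 was also lost with all libraries, with DESeq2 (adjusted p = 0.112), with upper quartile factors (adjusted p = 0.138) and with no filter on low counts (adjusted p = 0.163), and in all under 10 of 16 alternatives. Mycn, the progenitor relative of Myc, had -0.15 (SE 0.11) and did not pass. Of the 16 genes, 11 had a let-7 match in the annotated 3′ UTR, and of these 6 were higher and 1 was lower in iRGCs (63.6% called). Among the 5 without a match, which include both cyclins and both Myc genes, 2 were higher and 2 lower (80.0% called). Over all tested genes 23.3% were higher and 23.1% lower, and the difference between the lists was not tested.

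Of 10 genes of let-7 maturation and silencing, 2 were higher and 2 lower, with a median of -0.03, a share of 40.0% called beside 46.4% over all tested genes. The uridylyl transferases that Lin28 recruits to let-7 precursors differed in direction. Tut4 was at 278, 218 and 228 CPM in iRGCs and at 141, 152 and 133 CPM in cRGCs (log2FC 0.77, SE 0.12, adjusted p = 0.00124, edgeR), whereas Tut7 was at 85.9, 103 and 105 CPM in iRGCs and at 145, 123 and 134 CPM in cRGCs (-0.45, SE 0.12, adjusted p = 0.0165, edgeR). Neither overlapped between the populations. Ago2, the slicing Argonaute, had 0.41 (SE 0.13) and Tarbp2, a partner of Dicer, had -0.70 (SE 0.23). Both calls were lost without iRGC replicate 2 or cRGC replicate 3, and that of Ago2 also without cRGC replicate 2, with adjusted p-values (edgeR and its alternatives) of up to 0.105 for Ago2 and 0.115 for Tarbp2.

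Poly(A) RNA-seq does not measure mature microRNAs, and the 12 let-7 and miR-98 hairpin genes had at most 12 counts each over all libraries, with 5 at 0. The transcripts that hold the hairpins on their strand were counted instead. Of 6 such host transcripts, 1 was higher and 1 lower in iRGCs, a share of 33.3% called beside 46.4% over all tested genes. 3110039I08Rik (chr9:41327077-41716994, plus strand), which holds Mirlet7a-2 with Mir100 and Mir125b-1, was at 16.2, 22.7 and 15.2 CPM in iRGCs and at 78.2, 63.1 and 65.7 CPM in cRGCs. The highest iRGC library lay below the lowest cRGC library, and the mean was 3.83-fold higher in cRGCs (log2FC -1.94, SE 0.19, adjusted p = 0.000211, edgeR). 6720427I07Rik (chr13:48532905-48546500, minus strand), which holds Mirlet7a-1, Mirlet7d and Mirlet7f-1, was at 8.46, 10.5 and 8.80 CPM in iRGCs and at 4.73, 4.76 and 4.97 CPM in cRGCs (0.94, SE 0.27, adjusted p = 0.0237, edgeR). The levels of host transcripts are not levels of let-7.

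The relatives of Ikzf1 were counted at higher levels than Ikzf1 itself, apart from Ikzf3. Ikzf5 (Pegasus) was at 53.1, 38.4 and 48.9 CPM in iRGCs and at 30.1, 28.1 and 26.5 CPM in cRGCs (log2FC 0.73, SE 0.16, adjusted p = 0.00576, edgeR). Ikzf2 (Helios) overlapped and had 0.93 (SE 0.39, adjusted p = 0.0921, edgeR), a call that was lost without iRGC replicate 1 or 2 or without cRGC replicate 1 or 3, with adjusted p-values of up to 0.269 over the alternatives. Ikzf4 (Eos), which acts with Ikzf1 in early competence, was at 43.1, 33.1 and 35.3 CPM in iRGCs and at 48.3, 41.4 and 37.5 CPM in cRGCs and did not pass (-0.19, SE 0.16). Ikzf3 (Aiolos) was too low to be tested, at 0 to 0.309 CPM.

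Of the 13 genes of the NuRD complex, the chromatin remodelling and histone deacetylase complex with which Ikaros and Casz1 are known to work, 7 were higher and 2 lower in iRGCs, with a median of 0.26 (69.2% called, beside 46.4% over all tested genes). The deacetylase gene Hdac1 had a log2FC of 0.92 (SE 0.15), and the histone-binding subunits Rbbp7 and Rbbp4 had 0.89 (SE 0.13) and 0.65 (SE 0.11). Mbd2, which binds methylated DNA, had 0.48 (SE 0.12). Chd3, an ATPase of the complex, was at 245, 286 and 334 CPM in iRGCs and at 584, 537 and 491 CPM in cRGCs, without overlap (-0.90, SE 0.13, adjusted p = 0.000929, edgeR). The subunit Mta3 was lower too (-0.60, SE 0.15).

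Of 7 other HMG chromatin proteins, 6 were higher in iRGCs and none was lower, with a median log2FC of 1.15 (85.7% called, beside 46.4% over all tested genes). Hmgb2, a DNA-bending protein of dividing cells, was at 67.6, 70.5 and 87.6 CPM in iRGCs and at 10.8, 18.4 and 16.4 CPM in cRGCs (2.30, SE 0.21). The nucleosome-binding proteins Hmgn5, Hmgn2, Hmgn3 and Hmgn1 had log2FC values of 2.08, 1.38, 1.07 and 0.59, and Hmgb1 had 1.15. Many HMG genes have processed pseudogenes, so their counts of uniquely aligned reads are uncertain as levels.

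Of 7 other temporal regulators, 2 were higher and 1 lower, with a median of -0.19. This share of 42.9% called is close to the 46.4% over all tested genes. Foxn4, a progenitor factor for amacrine and horizontal cells, was at 263, 236 and 216 CPM in iRGCs and at 22.2, 58.5 and 36.5 CPM in cRGCs (log2FC 2.61, SE 0.30, adjusted p = 0.000318, edgeR). Foxp1, a factor of early progenitor competence, had 0.64 (SE 0.16). Pou2f2, which promotes cone fate in the window of early competence, was at 96.5, 104 and 119 CPM in iRGCs and at 267, 229 and 320 CPM in cRGCs (-1.35, SE 0.15, adjusted p = 0.000258, edgeR). The early-fate factors Onecut1 (-0.58, SE 0.25, adjusted p = 0.103, edgeR) and Onecut2 (-0.56, SE 0.25, adjusted p = 0.117, edgeR) overlapped between the populations. Both passed with DESeq2 and with limma voom, and both passed without iRGC replicate 2 or without cRGC replicate 1. Other libraries left out made the changes smaller. The log2FC ranged from -0.73 to -0.27 for Onecut1 and from -0.74 to -0.20 for Onecut2 with single libraries left out. Their adjusted p-values (edgeR and its alternatives) were up to 0.447 and 0.510.

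Of 15 genes of late progenitors and glia, 13 were tested, of which 11 were higher and 2 lower in iRGCs, with a median of 2.36 (beside 46.4% called over all tested genes). The Id genes, inhibitors of proneural factors, had the largest changes, with log2FC values of 3.15 for Id3 (SE 0.35), 2.88 for Id2 (SE 0.34) and 2.77 for Id1 (SE 0.41). Slc1a3, the glutamate transporter of radial glia, was at 202, 147 and 175 CPM in iRGCs and at 19.2, 41.0 and 23.7 CPM in cRGCs (2.64, SE 0.27). These genes are also expressed by progenitors, whose markers were all higher in iRGCs, and the part of progenitors in their levels was not tested. Aldh1l1, an astrocyte enzyme (-1.09, SE 0.36), and Cdkn1c, an inhibitor of the cell cycle (-0.78, SE 0.15), were lower, the call of Aldh1l1 being lost without iRGC replicate 2 or cRGC replicate 1 or 3 (adjusted p of up to 0.135 over the alternatives). The astrocyte gene Gfap was at 0 in each cRGC library and had at most 6 counts in an iRGC library.

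The genes whose pattern over the 6 libraries was nearest to the most abundant early and late member were taken from 10275 genes with a mean of at least 10 CPM, by the Euclidean distance of log2 levels centred on each gene's mean. Nearest to Hmga1 were Zcwpw1 (distance 0.194), Rgs8 (0.198) and Enkd1 (0.215). Nearest to Casz1 were Tshr (0.309), Fam84b (0.320) and Doc2b (0.339). Being chosen for this likeness, they share the direction of Hmga1 and Casz1 by construction. Tshr, for example, was at 17.4 ± 1.83 CPM in iRGCs and at 3.85 ± 1.50 CPM in cRGCs (mean ± SD, n = 3).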

How the data were processed

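RNA-seq libraries of iRGCs (n = 3) and cRGCs (n = 3) were analysed, and the 13 ATAC-seq samples were not analysed here. Per the study's methods and the submitters' processing notes, reads were aligned with HISAT2 2.1.0 to mm10 and counted with HTSeq 0.11.1 on Ensembl genes. The authors deposited 1 table of raw counts for each library. Reads assigned to no gene were kept out of the library totals, and made up between 12.3% and 23.2% of uniquely aligned reads. GENCODE M21 gave symbols, positions and lengths.

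Genes were filtered with filterByExpr, normalized by TMM and tested with edgeR 4.0.16 (quasi-likelihood, R 4.3.3), with population as the only term and Benjamini-Hochberg adjustment over all 15941 tested genes. An SE is the absolute log2FC over the square root of F. Nothing in the labels ties replicates to single embryos, so p-values measure the spread between these libraries, which may be technical. The biological coefficient of variation was 36.3%, and no pair of libraries of the same population was alike within sampling noise.

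Lists were described by counts and medians beside all tested genes. The members and lists were chosen with earlier results of these data known. Named were all members, a fixed set of genes, and from each list every gene called or, where more than 6 were called, the 4 largest changes in each direction. Ratios were tested on log2 CPM with a pseudocount of 0.5. Alternatives were DESeq2 1.42.0, its size factors, upper quartile factors, limma voom (limma 3.58.1), no filter, a minimum of 10 counts per library, leaving out single libraries, a replicate block, a stricter threshold of 0.05, a log2FC beyond 1 in size, protein-coding genes alone, a pseudocount of 0.1, library totals in place of TMM and the longest transcript in place of merged exons.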

Additional observations from a re-analysis of the deposited data

How the results depend on the processing

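Hmga1, Hmga2, Casz1, Nfia and Nfib kept their direction and stayed past the threshold under every alternative run on the test of single genes. Ikzf1 is left out here, since its direction was fixed. With a minimum of 10 counts per library, Ikzf1 and Nfix were not tested. Of 143 values of the other 9 members under alternatives, 133 kept direction and side, and the changes fell on Lin28a, Lin28b, Nfic and Nfix. Without one library, the log2FC of Lin28a lay between -1.09 and 0.80 and that of Igf2bp3 between -0.067 and 0.19, with both signs. With an absolute log2FC above 1, the calls were 3688 over all genes, 7 among the let-7 targets, 0 in let-7 maturation, 0 among the Ikaros relatives, 0 in the NuRD complex and 1 among the let-7 hosts. With protein-coding genes alone, 0 let-7 hosts were called, since both called hosts are noncoding and left the test. DESeq2, limma voom and no filter called 5 of the other temporal regulators, where 3 passed in the report, by adding Onecut1 and Onecut2. An adjusted p under 0.05 left 1 of the Ikaros relatives. Leaving out one library gave 2 to 4 calls in let-7 maturation, 1 to 2 among the Ikaros relatives and 3 to 6 among the other temporal regulators, with the lowest count for let-7 maturation without iRGC replicate 2 or cRGC replicate 3 and the highest for the temporal regulators without cRGC replicate 1. For the ratios, the log2 difference without one library ranged from -0.017 to 0.12 for Nfia over Nfib, from -0.29 to 0.91 for Nfia over Nfix and from -0.37 to 0.86 for Nfib over Nfix. With a pseudocount of 0.1 it was -0.10 for Nfia over Nfix and -0.19 for Nfib over Nfix. Where no construction of the setting is named, the cause was not tested. No other scaling moved the median of all genes by more than 0.1 on the log2 scale.

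Same-numbered libraries of the populations did not deviate together (correlations of -0.01, -0.02 and -0.06), so the replicate numbers were not read as pairs. With the replicate block, 1 of the Ikaros relatives passed in place of 2, Myc (0.111) and Dicer1 (0.157) did not pass, and the adjusted p of Lin28b was 0.101 and that of Ikzf1 0.0910.

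With 3 libraries per population, differences of genes at few counts, such as Lin28a and Nfix, were not detectable unless large, and a count of 0 for Ikzf1 in cRGCs sets an upper limit on its level and does not show that it is absent.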
